A study of Mus musculus with 3 samples.

Results

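The cathepsins are the proteases of the lysosome, and cystatin C is their secreted inhibitor. Described here are 10 genes, chosen by name and taken by symbol from the count matrices, out of 27998 genes in all: the cysteine cathepsins Ctsb, Ctsc, Ctsh, Ctsk, Ctsl, Ctss and Ctsz, the aspartic protease Ctsd, the serine carboxypeptidase Ctsa, and Cst3, which encodes cystatin C. All 10 had a row in each matrix, and 9 had UMIs in the macrophage-, monocyte-, neutrophil-, cDC1- and cDC2-like cells of each library, the exception being Ctsk.

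Cathepsins are made as inactive precursors, carried to acidic compartments by mannose-6-phosphate receptors and activated there. Macrophages use them to digest what they take up, dendritic cells use Ctss to trim the invariant chain from class II molecules, and several cathepsins cut elastin and collagen when released, which has made them a long-standing subject in atherosclerosis and aneurysm. Cystatin C is a tight-binding inhibitor of most cysteine cathepsins and does not inhibit Ctsd or Ctsa.

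Single-cell RNA was measured with 10x Genomics 3' v2 chemistry in cells of the mouse suprarenal aorta, in 3 libraries with 1 library for each group. Control pooled 5 C57Bl/6 mice fed chow. Room air pooled 5 Apoe-/- mice that breathed room air for 16 weeks on a high fat diet, called Western diet elsewhere in the labels. Aneurysm pooled 4 Apoe-/- mice on that diet that were exposed to cigarette smoke for 16 weeks and had a measurable aneurysm. The labels count a further group exposed to smoke, not analysed here. Room air against control therefore asks about loss of Apoe and the diet together, and aneurysm against room air about smoke and the choice of mice with an aneurysm together. The labels also give a cell viability of 73% for control, 91% for room air and 94% for aneurysm. With 1 library for each group, viability cannot be told apart from genotype and diet. Each pool was sorted for CD45+CD31- cells (leukocytes) and CD45-CD31+ cells (endothelium), so the share of cells of each kind was set in part by the sort. The labels give no age and no sex, and they do not say how many cells each mouse gave to its pool.

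The control library held 2568192 UMIs, that of room air 9998517 and that of aneurysm 16698309, and 773, 1821 and 2775 cells were kept, with medians of 2681, 3884 and 4476 UMIs over the listed barcodes. A UMI marks 1 captured molecule at its 3' end, so levels of different genes can be set side by side without a correction for length. Levels are given in CPM, the UMIs of a gene scaled to 1000000 UMIs of the cells summed, and ratios carry 95% intervals in parentheses that cover counting error only, as do the bars in the plots. There is no replicate, so no difference between groups was tested, and a gene is called higher or lower where the ratio passed 1.5-fold with at least 20 UMIs over both libraries. Classes with at least 25 cells in both libraries were compared, and single clusters with at least 10. Apoe, the deleted gene, had 10501 CPM in control against 17.1 in room air and 13.1 in aneurysm. Ptprc, which encodes CD45, had 269.9, 348 and 358 CPM over all cells in the same order. Libraries shared between 4 and 9 cell barcodes with another library.

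Cells were clustered with the 10 genes left out, so that none of them drew a cluster, and 24 clusters were named from marker genes. The macrophage-like class joined 5 clusters. In control, 253 of its 275 cells lay in cluster 2, led by Apoe, Ccl24, Lyve1 and Cd163. In room air 198 of 539 cells and in aneurysm 290 of 641 cells lay in cluster 19, led by Gpnmb, Spp1 and Mmp12, and most others in cluster 13 (Ccl12, Ifit3; 228 and 162 cells), cluster 5 (Nxpe5, Cx3cr1, with the T cell gene Izumo1r; 61 and 88 cells) and cluster 12 (Ccl8, Ednrb, Cd209f; 41 and 98 cells). Clusters 2, 12 and 19 had 0 of the macrophage markers and 0 markers of another class among their 10 leading genes. A difference between control and room air within the macrophage-like class is thus also a difference between clusters, and both are given below.

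The members lie on 6 chromosomes of GRCm38 (GENCODE M21, protein coding): Cst3 (chr2:148871722-148875692), Ctsa (chr2:164832873-164841032), Ctsz (chr2:174427493-174439039), Ctsk (chr3:95499256-95509362), Ctss (chr3:95526786-95556403), Ctsc (chr7:88278085-88310888), Ctsd (chr7:142375911-142388038), Ctsh (chr9:90054152-90076089), Ctsl (chr13:64359337-64370890) and Ctsb (chr14:63122462-63145923). Ctsk and Ctss are neighbours on the same strand, with 17423 bases between them. RefSeq promoter windows (GRCm38.p6, from 250 bases before to 50 after a start site) were at hand for 8 of the 10 members. They were searched for CACGTG, the E-box core bound by TFEB and its relatives in many lysosomal promoters, which reads the same on both strands. It was present in 3 of the 9 windows of these 8 members, against 7.15% of all 32851 windows. The longer TCACGTGA, which contains the core, was present in 2 of the 9 windows, 1 each of Ctsa and Ctsd, against 0.974% of windows. GAGGAA, the core of many PU.1 sites, searched on both strands, was present in 4 of the 9 windows, those of Cst3, Ctsc, Ctsk and Ctss, against 28.3% of windows. A match is a description of the letters and not a measured site. The windows with CACGTG are shown, and that of the inhibitor Cst3 beside them. In macrophage-like cells Ctsa, Ctsd and Ctsl were higher in room air, but so were Ctsk, Ctss and Ctsz, whose windows have no CACGTG. The core is in capitals. Ctsd is read on the minus strand (chr7:142387778-142388077), with cores 245 and 98 bases before the start site. Ctsa is the second of its windows, inside the annotated gene (chr2:164833523-164833822, plus strand), with cores 12 bases before and 5 after. The window of Ctsl (chr13:64370471-64370770, minus strand) also lies inside the annotated gene, with its core 236 bases before the start site of the window. Cst3 (chr2:148875463-148875762, minus strand) has none.
Ctsd: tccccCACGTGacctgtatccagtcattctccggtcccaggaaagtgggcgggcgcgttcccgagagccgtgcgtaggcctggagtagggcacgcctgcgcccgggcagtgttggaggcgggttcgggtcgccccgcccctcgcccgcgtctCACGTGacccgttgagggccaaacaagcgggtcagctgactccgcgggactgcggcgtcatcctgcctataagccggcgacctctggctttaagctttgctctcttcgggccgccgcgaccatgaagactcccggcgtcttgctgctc
Ctsa: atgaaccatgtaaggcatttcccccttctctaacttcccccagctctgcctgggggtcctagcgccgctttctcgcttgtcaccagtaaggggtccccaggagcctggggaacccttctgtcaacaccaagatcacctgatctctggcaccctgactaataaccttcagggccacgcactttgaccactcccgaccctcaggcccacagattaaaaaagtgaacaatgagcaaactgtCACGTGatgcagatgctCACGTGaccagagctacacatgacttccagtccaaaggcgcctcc
Ctsl: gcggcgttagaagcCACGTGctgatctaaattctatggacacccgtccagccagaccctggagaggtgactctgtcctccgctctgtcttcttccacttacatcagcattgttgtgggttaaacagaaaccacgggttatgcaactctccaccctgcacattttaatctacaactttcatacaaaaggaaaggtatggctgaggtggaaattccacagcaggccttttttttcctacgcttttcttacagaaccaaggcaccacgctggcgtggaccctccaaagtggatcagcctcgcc
Cst3: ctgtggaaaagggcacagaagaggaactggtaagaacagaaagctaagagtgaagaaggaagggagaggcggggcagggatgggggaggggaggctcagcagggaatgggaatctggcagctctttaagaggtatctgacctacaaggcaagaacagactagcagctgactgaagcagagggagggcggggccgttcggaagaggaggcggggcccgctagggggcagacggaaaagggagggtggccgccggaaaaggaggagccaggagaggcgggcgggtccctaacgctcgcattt

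The summed level of the cathepsins was highest in macrophage-like cells and that of cystatin C in cDC1-like dendritic cells. The 9 cathepsins together made up 1.02% of the UMIs of macrophage-like cells of control, 2.01% in room air and 1.95% in aneurysm. In T-cell-like cells the same sum was 0.0764%, 0.343% and 0.171%. Among classes with at least 25 cells in the library, the highest level was in a myeloid class for 7 members in control and for 10 in each of room air and aneurysm. In control the exceptions were Ctsh and Ctsl, highest in endothelial-like cells, and Ctsk, with 0 UMIs in every such class. Control had 16 cDC2-like, 11 neutrophil-like and 0 mature-dendritic-cell-like cells, so these classes could not be highest there. The share of all genes highest in a myeloid class is not given here, so the counts describe the members only.

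Ctsb, a cysteine protease that cuts both inside and at the end of proteins, was the most abundant cathepsin in macrophage-like cells, at 3633 CPM (control), 7291 CPM (room air) and 7154 CPM (aneurysm). These cells held 73.4%, 72.2% and 70.4% of all Ctsb UMIs while being 35.6%, 29.6% and 23.1% of the cells. Ctss, which stays active at neutral pH, was spread more widely: monocyte-like cells had 2788 CPM (control), 3896 CPM (room air) and 4178 CPM (aneurysm), and cDC2-like cells had 3078 CPM in room air and 3106 in aneurysm. Control monocyte-like cells had more Ctss than control macrophage-like cells (1746 CPM), and in the other libraries the order was the opposite.

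Ctsc, the dipeptidyl peptidase that activates granule serine proteases, was highest in macrophage-like cells of control (2254 CPM). In room air neutrophil-like cells (1705 CPM) and macrophage-like cells (1673 CPM) did not differ beyond counting error. The neutrophil-like cluster had macrophage markers as its next best score, and whether doublets remain in it was not tested. Ctsh, an aminopeptidase, was highest in mature-dendritic-cell-like cells, with 1632 CPM in room air and 1809 in aneurysm, above the 1219 and 1183 CPM of macrophage-like cells. Ctsz, a carboxypeptidase, had 1302 CPM in room air and 1228 in aneurysm in the same mature dendritic cells, below the 1595 and 1560.3 CPM of macrophage-like cells.

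Ctsd, the aspartic protease of the lysosome, differed between classes of the room air library with at least 25 cells from 310.4 CPM in cDC1-like to 2127 CPM in macrophage-like cells, and was lower in control, with 36.3 CPM in cDC1-like and 48.8 CPM in B-cell-like cells. Endothelial-like cells had 575 CPM (control), 757 CPM (room air) and 1114 CPM (aneurysm), and in control they were level with macrophage-like cells (576 CPM). Ctsa, which also shields the sialidase Neu1 from degradation, had 404 CPM (control), 698 CPM (room air) and 664 CPM (aneurysm) in macrophage-like cells and 559.7 CPM in room air and 516 in aneurysm in cDC2-like cells.

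Cst3 was highest in cDC1-like cells, the Xcr1- and Clec9a-positive dendritic cells that cross-present antigen, at 37347 CPM (control), 22142 CPM (room air) and 20630 CPM (aneurysm). That was 3.73% of all UMIs of the class for control, 2.21% in room air and 2.06% in aneurysm. Mature-dendritic-cell-like cells followed with 12277 CPM in room air and 12109 in aneurysm. Macrophage-like cells had 7618 CPM (control), 4258 CPM (room air) and 3955 CPM (aneurysm), and endothelial-like cells 6404 CPM (control), 2558 CPM (room air) and 2214 CPM (aneurysm). cDC1-like cells were 3.36%, 2.03% and 2.20% of cells and held 27.0%, 17.9% and 20.6% of all Cst3 UMIs. Macrophage-like cells, being more numerous, held 39.0%, 41.3% and 34.7%.

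**Figure D1:**
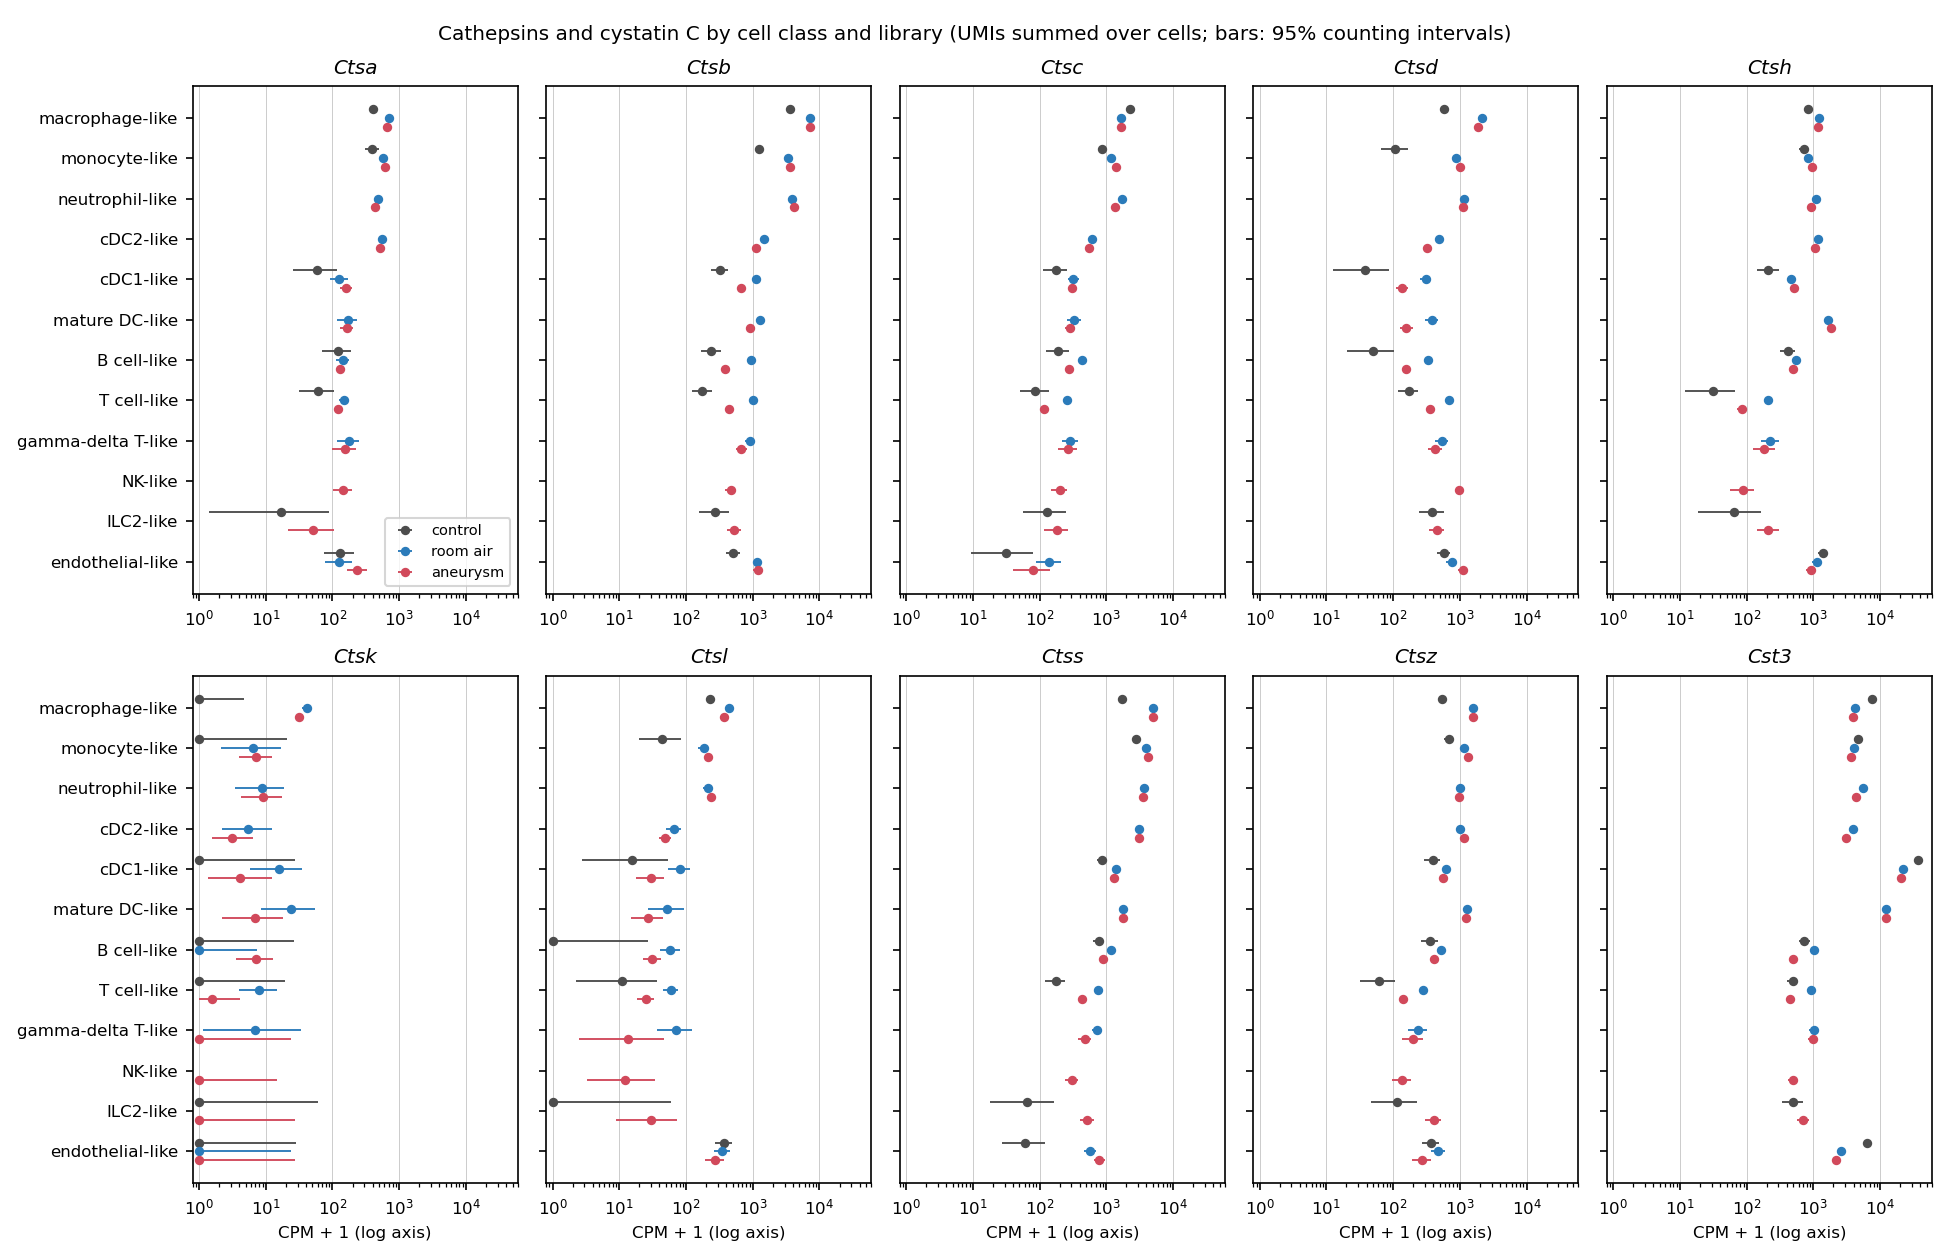
Level of each member in CPM plus 1 (horizontal log axis) in 12 cell classes (vertical axis), 1 panel for each gene, with points for control, room air and aneurysm and bars for 95% counting intervals; classes with under 25 cells in a library have no point. Cathepsins sit furthest right in the myeloid rows at the top, apart from Ctsh and Ctsl of control, while Cst3 peaks in cDC1-like cells, at 37347 CPM in control.

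In macrophage-like cells, 7 of 10 members exceeded control by at least 1.5-fold in room air, namely Ctsa, Ctsb, Ctsd, Ctsk, Ctsl, Ctss and Ctsz, and 1 was lower, Cst3. Over all 9423 genes compared in this class, 26.0% were higher and 14.1% lower. The median log2 ratio of the members was 0.97 beside 0.13 over all genes. Among members with UMIs in both libraries, Ctsd differed most. It stood at 576 CPM (control), 2127 CPM (room air) and 1882 CPM (aneurysm), 3.69-fold (3.39 to 4.03) higher in room air. Ctsz stood at 542 CPM (control), 1595 CPM (room air) and 1560.3 CPM (aneurysm), 2.94-fold (2.69 to 3.22) higher. Ctss stood at 1746 CPM (control), 5067 CPM (room air) and 5027 CPM (aneurysm), 2.90-fold (2.76 to 3.05) higher. In each of these the 2 Apoe-/- libraries lay close together and far above control. Ctsl had 228 CPM (control), 434 CPM (room air) and 376 CPM (aneurysm), 1.90-fold (1.65 to 2.20) higher. From the levels given above, Ctsb was 2.01-fold (1.94 to 2.08) and Ctsa 1.73-fold (1.55 to 1.92) higher.

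The other cysteine cathepsins behaved differently. Ctsh had 837 CPM (control), 1219 CPM (room air) and 1183 CPM (aneurysm), a ratio of 1.46 (1.35 to 1.57), just under the limit. Ctsc had 2254 CPM (control), 1673 CPM (room air) and 1660 CPM (aneurysm) and was 1.35-fold (1.28 to 1.41) lower in room air, also within the limit and in the opposite direction within cluster 2. Cst3 was 1.79-fold (1.74 to 1.84) lower in room air, from 7618 to 4258 CPM. The T cell markers summed to 80.8 CPM in macrophage-like cells of control, 378 in room air and 344 in aneurysm, with none of 8 at 0 in any library. The markers of cDC2 summed to 1856, 1019 and 1209 CPM, those of monocytes to 2103, 1332 and 1516, and those of B cells to 198, 404 and 332, with at most 1 gene of a list at 0. The cDC2 and monocyte sums were thus lower in room air, as Cst3 was, and the part of these lists in the differences was not tested.

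Ctsk, the collagenase best known from osteoclasts, had 0 UMIs in control macrophage-like cells, which allows up to 3.07 CPM, and 40.1 CPM in room air and 31.1 in aneurysm. Taken at 3 counts over the control class, room air was at least 13.1-fold higher, and the exact interval of the ratio began at 10.5. Of all Ctsk UMIs, 70% in room air and 74.9% in aneurysm lay in cluster 19, which was 10.9% and 10.4% of cells. Within that cluster the UMIs were uneven. In room air 40 of 198 cells had any, 26 of them just 1, and 5 cells held 69.5% of the 154 UMIs, with 49 in a single cell. In aneurysm 43 of 290 cells had any, and 5 cells held 52.4% of 164 UMIs, with at most 25 in a cell. A few cells thus set the level of Ctsk, and its counting interval is too narrow. The value of 13.1 became 5.58 when each cell was classed by its own markers and 2.55, with too few UMIs for a call, when cells were thinned to 1000 UMIs. Cells with Ctsk had a median of 9142.5 UMIs in room air and 8575 in aneurysm, beside 7469 and 7966 in the other cells of the cluster. The summed level of the osteoclast genes Acp5, Dcstamp, Ocstamp and Atp6v0d2 was 472 CPM in the cells with Ctsk and 388 in the others in room air, and 584 and 368 in aneurysm.

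The cluster led by Gpnmb, Spp1 and Mmp12, genes of lipid-laden macrophages, had the highest level of most cathepsins. In room air Ctsb stood at 11251 CPM in cluster 19 and 4243 in cluster 13, 2.65-fold (2.58 to 2.73) higher, and in aneurysm at 10334 and 3692, 2.80-fold (2.71 to 2.89) higher. Ctsd was 3.31-fold (3.13 to 3.5) higher than in cluster 13 in room air and 3.29-fold (3.08 to 3.51) in aneurysm. Ctsl was 3.01-fold (2.67 to 3.41) and 2.30-fold (2.01 to 2.64) higher, Ctsz 1.96-fold (1.86 to 2.08) and 1.99-fold (1.87 to 2.11), and Ctss 1.51-fold (1.47 to 1.56) and 1.52-fold (1.47 to 1.56). For Ctsl the median cells differed less than these sums. In UMIs per 10000 they had 2.59 in cluster 19 and 1.90 in cluster 13 in room air, and 2.15 and 1.61 in aneurysm. These clusters share a library, and they were drawn from the cells' other genes.

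Cluster 19 was not higher throughout. Ctsc was 1.92-fold (1.82 to 2.03) lower there than in cluster 13 in room air and 1.77-fold (1.68 to 1.86) lower in aneurysm. Cst3 was 1.57-fold (1.52 to 1.63) and 1.53-fold (1.48 to 1.58) lower. Ctsh was nearly flat over the clusters, at 1256 CPM in cluster 19, 1209 in cluster 13 and 1269.9 in cluster 12 of room air. The Ccl8-led cluster 12 came closest to cluster 19 in summed Ctsl, with 549.5 against 674 CPM in room air and 477 against 486 in aneurysm. The median cell had more Ctsl in cluster 12, with 5.34 against 2.59 UMIs per 10000 in room air and 3.78 against 2.15 in aneurysm. Between cells of cluster 19, Ctsb ran from 29.7 at the 10th percentile to 190.2 at the 90th, in UMIs per 10000, in room air, and the median of cluster 13 lay inside that range ( 37.9).

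Cluster 2, the Lyve1- and Cd163-positive cells that made up most control macrophages, kept 11 cells in room air and 3 in aneurysm. Within it, Ctsd was 1.62-fold (1.15 to 2.22) higher in room air, Ctsb 1.48-fold (1.29 to 1.69) and Ctsc 1.36-fold (1.14 to 1.62). Cst3 was 1.26-fold (1.14 to 1.39) higher there, from 7805 to 9828 CPM, the opposite of its direction in the class as a whole. Of 9 members, 1 was past 1.5-fold higher in this cluster, Ctsd, beside 26.7% of 4738 genes, and Ctss (1.32, 1.06 to 1.63) and Ctsz (1.28, 0.851 to 1.87) were not. With the joined clusters that lack a class marker among their leading genes left out, control kept 13 cells. There 8 members were higher, now with Ctsc (a ratio of 1.65) and Ctsh and without Ctsk, while Cst3 had a ratio of 0.882. The share over all genes for these cells is not given here, and that of the full class does not stand in for it.

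**Figure D2:**
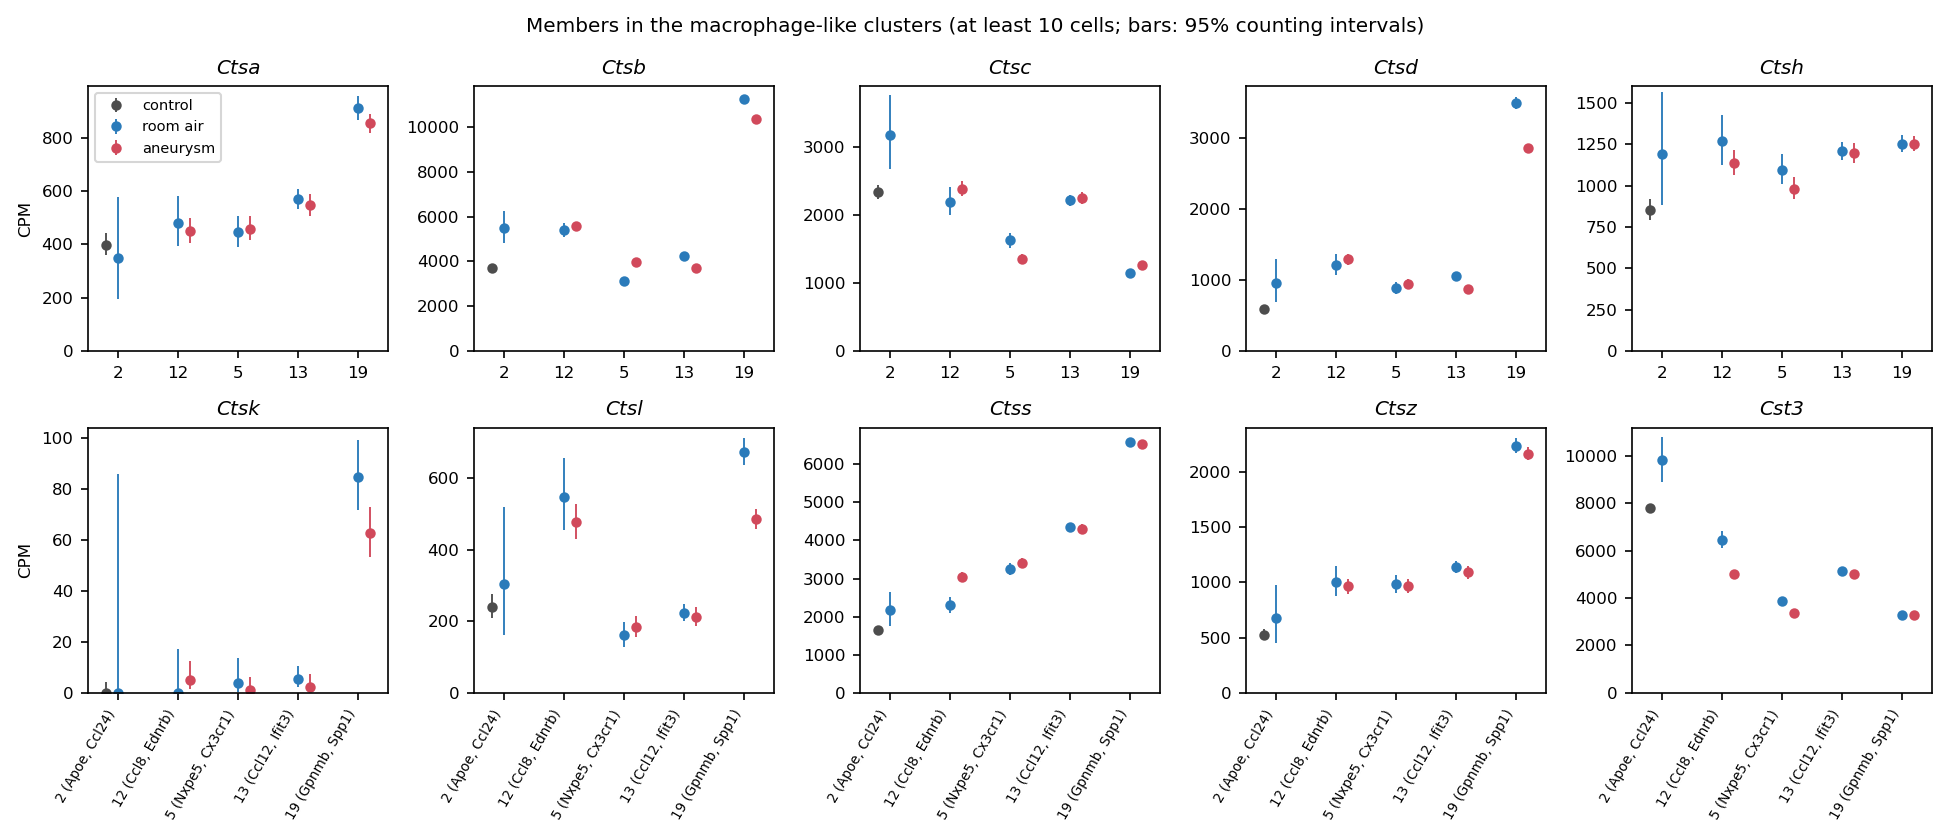
Level of each member in CPM (vertical axis from 0) in the 5 macrophage-like clusters (horizontal axis, with 2 leading genes), for libraries with at least 10 cells in the cluster; bars are 95% counting intervals. Cluster 19 is highest for Ctsb (11251 CPM in room air), Ctsd, Ctss and Ctsz and lowest for Ctsc, and control has a point in cluster 2 alone.

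The balance of proteases to inhibitor differed between libraries and clusters. The 7 cysteine cathepsins had 1.21 (1.18 to 1.25) UMIs for each UMI of Cst3 in control macrophage-like cells, 4.07 (4.00 to 4.14) in room air and 4.30 (4.23 to 4.36) in aneurysm. In cluster 19 it was 7.11 (6.92 to 7.31) in room air and 6.74 (6.59 to 6.89) in aneurysm, and in cluster 13 2.61 (2.54 to 2.68) and 2.54 (2.46 to 2.61). Cluster 2 had 1.19 (1.16 to 1.23) in control and 1.33 (1.17 to 1.51) in room air, with intervals that overlap. The other clusters held few control cells. In clusters 19, 13 and 5 the value was lower in control: 1.58 (1.30 to 1.93) from 7 cells of cluster 19, 1.31 (1.10 to 1.56) from 8 cells of cluster 13 and 1.08 (0.838 to 1.41) from 5 cells of cluster 5, where room air had 2.65 (2.52 to 2.79). In cluster 12 it was not lower: the 2 control cells had 2.07 (1.55 to 2.80) and room air had 1.96 (1.84 to 2.10), with intervals that overlap. cDC1-like cells stood at the other end with 0.0529 (0.0466 to 0.0598), 0.183 (0.172 to 0.194) and 0.164 (0.156 to 0.172). RNA counts give no measure of protease or inhibitor activity, since cathepsins are activated after synthesis and cystatin C is secreted.

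Single cells varied widely. In control macrophage-like cells the 9 cathepsins took a median of 1.01% of a cell's UMIs, with 0.62% at the 10th and 1.53% at the 90th percentile. In cluster 19 the median was 2.52% in room air and 2.26% in aneurysm, and the 90th percentile 4.10% and 4.35%. The 10th percentile of cluster 19, 1.22% and 1.14%, lay above the control median. In the whole macrophage-like class the median was 1.54% in room air and 1.58% in aneurysm. The 10th percentile of that class, 0.981% and 0.89%, lay below the control median.

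**Figure D3:**
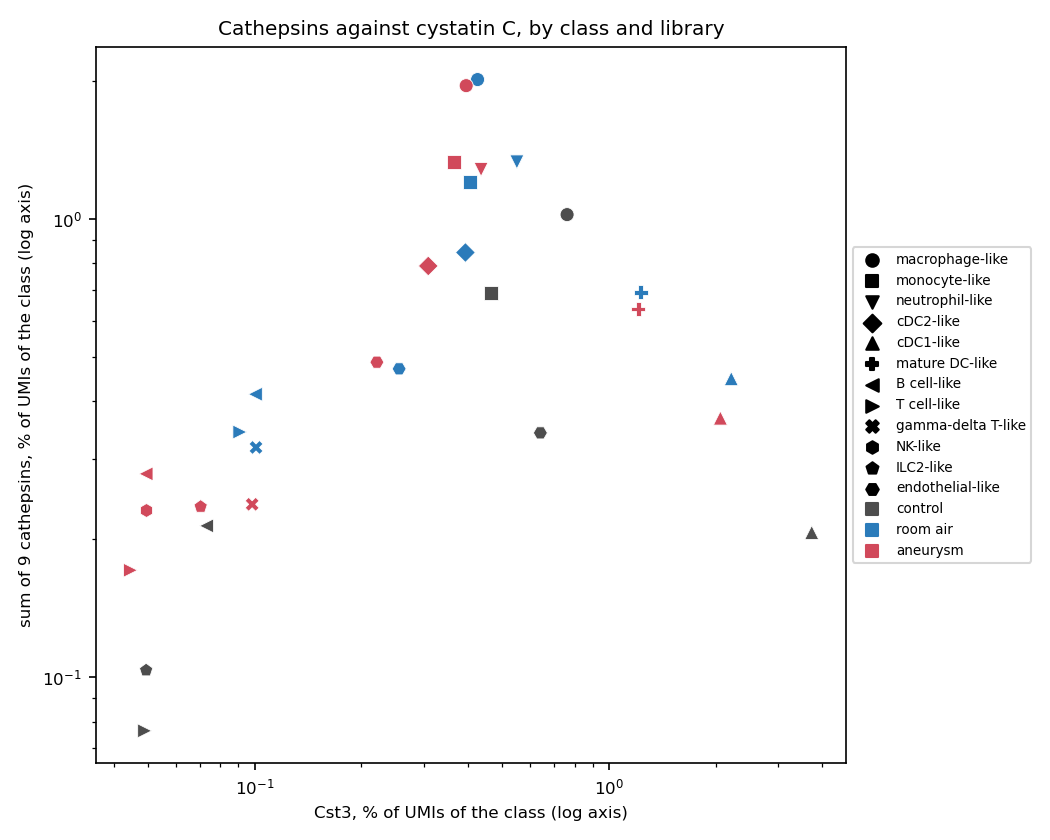
Sum of the 9 cathepsins (vertical log axis) against Cst3 (horizontal log axis), both as % of the UMIs of a class in a library; marker shape gives the class and colour the library. Macrophage-like cells lie at the top (2.01% cathepsins in room air), cDC1-like cells at the right (3.73% Cst3 in control), and T- and B-cell-like cells at the lower left.

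In monocyte-like cells, which joined cluster 6 (Chil3, Hp) and cluster 11 (Treml4, Ace), room air exceeded control for 4 of 9 members and was lower for 0, beside 26.8% and 8.06% of 4107 genes. Ctsd had 107 CPM (control), 875 CPM (room air) and 996 CPM (aneurysm), 8.17-fold (5.23 to 13.5) higher in room air. Ctsb had 1258 CPM (control), 3373 CPM (room air) and 3679 CPM (aneurysm), 2.68-fold (2.34 to 3.09) higher, and Ctsl had 42.8 CPM (control), 183 CPM (room air) and 211 CPM (aneurysm), 4.27-fold (2.08 to 10.2) higher. Ctsz was 1.65-fold (1.36 to 2.01) higher. Ctss (1.40, 1.27 to 1.54), Ctsa (1.44, 1.11 to 1.88), Ctsc (1.36, 1.15 to 1.63), Ctsh (1.14, 0.94 to 1.39) and Cst3 (0.876, 0.809 to 0.948) were within 1.5-fold. Here both libraries hold the same clusters: in cluster 6, with 41 and 76 cells, Ctsd was 10.5-fold (6.08 to 19.9) higher and Ctsb 3.00-fold (2.53 to 3.57), and in cluster 11, with 19 and 32 cells, 3.27-fold (1.48 to 8.53) and 2.23-fold (1.76 to 2.86). With an estimate of free RNA subtracted, the class ratio was 8.48 for Ctsd and 2.65 for Ctsb.

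Cluster 8, led by Retnla, Lyz1, Ear2 and Fn1, matched no class well enough to be named and held 60 control, 14 room air and 45 aneurysm cells. In room air 7 of 9 members were higher there, beside 22.1% of 2597 genes, though from 14 cells: Ctsl differed 4.80-fold (2.34 to 9.98) from control, Ctsd 3.37-fold (2.55 to 4.46), Ctsa 2.50-fold (1.68 to 3.70), Ctsb 2.47-fold (2.10 to 2.90), Ctss 2.19-fold (1.91 to 2.52), Ctsz 1.91-fold (1.49 to 2.43) and Ctsh 1.68-fold (1.31 to 2.13). Ctsc (1.38, 1.10 to 1.73) and Cst3 (0.734, 0.646 to 0.832) were within 1.5-fold.

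Aneurysm differed little from room air in macrophage-like cells. None of the 10 members passed 1.5-fold in either direction, beside 3.73% of 10370 genes higher and 6.48% lower, and the median log2 ratio was -0.06 for the members and -0.02 for all genes. The ratios ran from 0.775 (0.622 to 0.966) for Ctsk to 0.992 (0.961 to 1.02) for Ctsc, with 0.992 (0.974 to 1.01) for Ctss, 0.981 (0.967 to 0.996) for Ctsb, 0.885 (0.86 to 0.91) for Ctsd, 0.866 (0.812 to 0.923) for Ctsl and 0.929 (0.91 to 0.947) for Cst3. Counting error for the abundant members is small enough to place them within 1.5-fold between these 2 libraries, but the spread between pools of mice is unknown.

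Within clusters the aneurysm to room air ratios had small but separate values. In cluster 19 Ctsl was 1.39-fold (1.28 to 1.5) lower in aneurysm, Ctsd 1.22-fold (1.18 to 1.27) and Ctsb 1.09-fold (1.07 to 1.11), while Ctsc was 1.10-fold (1.04 to 1.16) higher and Cst3 had a ratio of 1.00 (0.971 to 1.04). In cluster 13 Ctsd (0.822, 0.759 to 0.889) and Ctsb (0.87, 0.837 to 0.904) were likewise below 1. In cluster 12 Ctss was 1.32-fold (1.20 to 1.45) higher and Cst3 1.28-fold (1.21 to 1.37) lower, and in cluster 5 Ctsb was 1.26-fold (1.19 to 1.34) higher. The share of cluster 19 in the class was larger in aneurysm, 290 of 641 cells against 198 of 539, so that the class ratio mixes these within-cluster values with a different make-up.

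Monocyte-like cells had ratios of aneurysm to room air of 1.18 (1.08 to 1.29) for Ctsc, 1.14 (1.03 to 1.26) for Ctsd, 1.15 (1.05 to 1.26) for Ctsz and 1.09 (1.03 to 1.15) for Ctsb, with 0 members past 1.5-fold, beside 11.5% of genes higher and 10.1% lower. In the unnamed cluster 1, led by Top2a and Birc5, genes of dividing cells, with 23, 39 and 46 cells, Ctsd differed 7.01-fold (4.73 to 10.8) between room air and control and Cst3 was 3.65-fold (3.40 to 3.91) lower. In aneurysm 8 of 9 members were lower there than in room air, all of them cathepsins, beside 16.4% of 5682 genes, among them Ctsb 3.21-fold (2.93 to 3.51), Ctsd 2.93-fold (2.49 to 3.45) and Ctss 2.16-fold (1.98 to 2.36). The C1q genes of macrophages summed to 7211 CPM in its control cells, 9669 in room air and 3417 in aneurysm, and the cDC1 genes Xcr1, Clec9a and Naaa to 537, 150.5 and 499. Their part in the ratios was not tested.

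**Figure D4:**
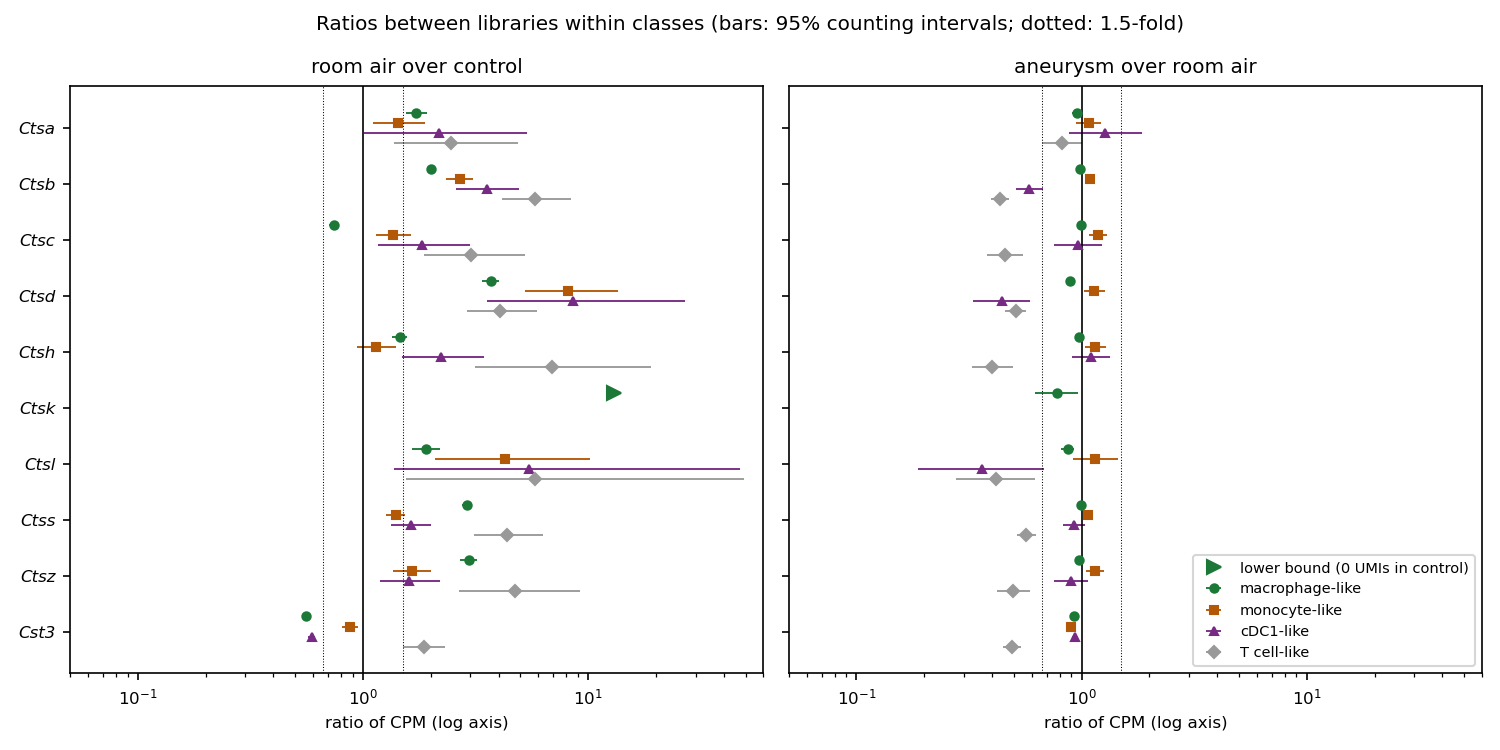
Ratio of CPM between libraries (horizontal log axis) for each member (vertical axis) in 4 classes, room air over control at left and aneurysm over room air at right; bars are 95% counting intervals, dotted lines mark 1.5-fold and the triangle is the lower bound for Ctsk. Ctsd lies right of the dotted line in all 4 classes at left (8.17 in monocyte-like cells), and macrophage- and monocyte-like points lie between the dotted lines at right.

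Room air also differed from control in opposite directions for cathepsins and inhibitor in cDC1-like dendritic cells. In cDC1-like cells, with 26, 37 and 61 cells, room air exceeded control for 8 of 9 members and was lower for 1, Cst3, beside 29.3% and 8.10% of 2680 genes. Ctsb had 319.5 CPM (control), 1130.2 CPM (room air) and 662 CPM (aneurysm), 3.54-fold (2.59 to 4.95) higher in room air. Ctsd had 36.3 CPM (control), 310.4 CPM (room air) and 137 CPM (aneurysm), and its 8.55-fold (3.55 to 26.9) difference rests on 5 UMIs in control. Ctss was 1.63-fold (1.33 to 2.01) higher. Cst3 was 1.69-fold (1.63 to 1.75) lower, and a lower level of so abundant a gene raises the share of all others slightly. An estimate of free RNA, described with the lymphoid classes, came to 13.2% of the Ctsb level in control and 22.8% in room air. With it subtracted the Ctsb ratio was 3.28 and that of Cst3 0.613.

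Between room air and aneurysm, 3 members were lower in cDC1-like cells, Ctsb (1.71-fold, 1.48 to 1.97), Ctsd (2.27-fold, 1.69 to 3.05) and Ctsl (2.76-fold, 1.47 to 5.32), and 0 higher, beside 8.98% and 14.3% of 4622 genes. With free RNA subtracted these ratios of aneurysm to room air were 0.632 for Ctsb, 0.467 for Ctsd and 0.358 for Ctsl, still past 1.5-fold. Cst3 (0.932, 0.906 to 0.959) and Ctss (0.925, 0.825 to 1.04) differed little. cDC2-like cells had 16 cells in control, too few to compare. Their Ctss was 3078 CPM in room air and 3106 in aneurysm, and their Cst3 3935 CPM in room air and 3092 in aneurysm, a ratio of 0.786 (0.753 to 0.82).

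Lymphoid classes had lower summed levels of cathepsins than macrophage-like cells, and each member was set beside an estimate of free RNA. The macrophage genes C1qa, C1qb and C1qc, taken as a gauge of RNA from other cells, summed to 574 CPM in T-cell-like cells of control, 1739 in room air and 569 in aneurysm. In these cells room air exceeded control for 9 of 9 members, beside 40.1% of 5921 genes (0 lower, beside 6.92%), and 8 of 9 were lower in aneurysm than in room air, beside 17.7% of 7875 genes (0 higher, beside 6.25%). B-cell-like cells had 5 of 9 members higher in room air (24.7% of 4060 genes) and 0 lower (11.5%), then 5 lower in aneurysm (16.1% of 6592 genes) and 0 higher (7.28%). Scaled to the C1q level, free RNA alone would give in T-cell-like cells a Ctsb level that the measured one exceeded by a factor of 1.60 (1.11 to 2.22) in control, of 1.15 (1.08 to 1.22) in room air and of 1.41 (1.31 to 1.51) in aneurysm. For Cst3 the same figures were 1.14 (0.922 to 1.38), 1.01 (0.946 to 1.07) and 1.27 (1.19 to 1.37). Subtracting free RNA changed the T-cell-like ratios strongly. For room air over control, Ctsd kept a ratio of 3.34 and Ctsb 2.36, Ctsa came to 1.20, and Ctss (0.628) and Cst3 (0.111) changed direction. For aneurysm over room air, Ctsd kept 0.552, Ctsb and Ctsz came to 0.85 and 0.852, and Ctss (2.65) and Cst3 (15.4) again changed direction. The Cst3 values rest on the little that remained in room air. The gauge was made from the T-cell-like cells, and no empty droplets were at hand to measure free RNA directly. Intervals of a level over free RNA leave out the counting error of the gauge itself and are thus too narrow.

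Several members stood well above that level. Ctsd in NK-like cells was 28.9 (18.7 to 42.6) times the free RNA level in control, 5.24 (4.19 to 6.48) times in room air and 13.4 (11.8 to 15.1) times in aneurysm, at 972 CPM in the 74 aneurysm cells. ILC2-like cells had 17.3 (11.1 to 25.8), 1.64 (1.10 to 2.36) and 5.62 (4.32 to 7.19) times, and T-cell-like cells 8.01 (5.55 to 11.2), 2.53 (2.35 to 2.71) and 4.02 (3.71 to 4.34) times. NK-like cells numbered 20 and 22 in control and room air, and ILC2-like cells 24 in room air.

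B-cell-like cells, which present antigen on class II molecules, had their own set. Ctsh stood at 418 CPM (control), 553 CPM (room air) and 487 CPM (aneurysm), which was 7.81 (5.96 to 10.1), 2.65 (2.36 to 2.95) and 6.13 (5.67 to 6.62) times the free RNA level. Ctss was 6.95 (5.71 to 8.37), 1.56 (1.45 to 1.69) and 3.14 (2.97 to 3.33) times, and Ctsz 9.36 (6.97 to 12.3), 2.14 (1.91 to 2.39) and 4.33 (3.97 to 4.71) times. Ctsb in B-cell-like cells was near it, at 1.54 (1.06 to 2.15), 0.996 (0.913 to 1.08) and 1.19 (1.09 to 1.30) times. With free RNA subtracted, the ratio of room air to control was 1.11 for Ctsh, 1.05 for Ctsz, 2.65 for Ctsd and 2.38 for Ctsc. It was below 1 for Ctss (0.755), Cst3 (0.495) and Ctsa (0.412), each above 1 as counted, and nothing of Ctsb remained in room air.

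**Figure D5:**
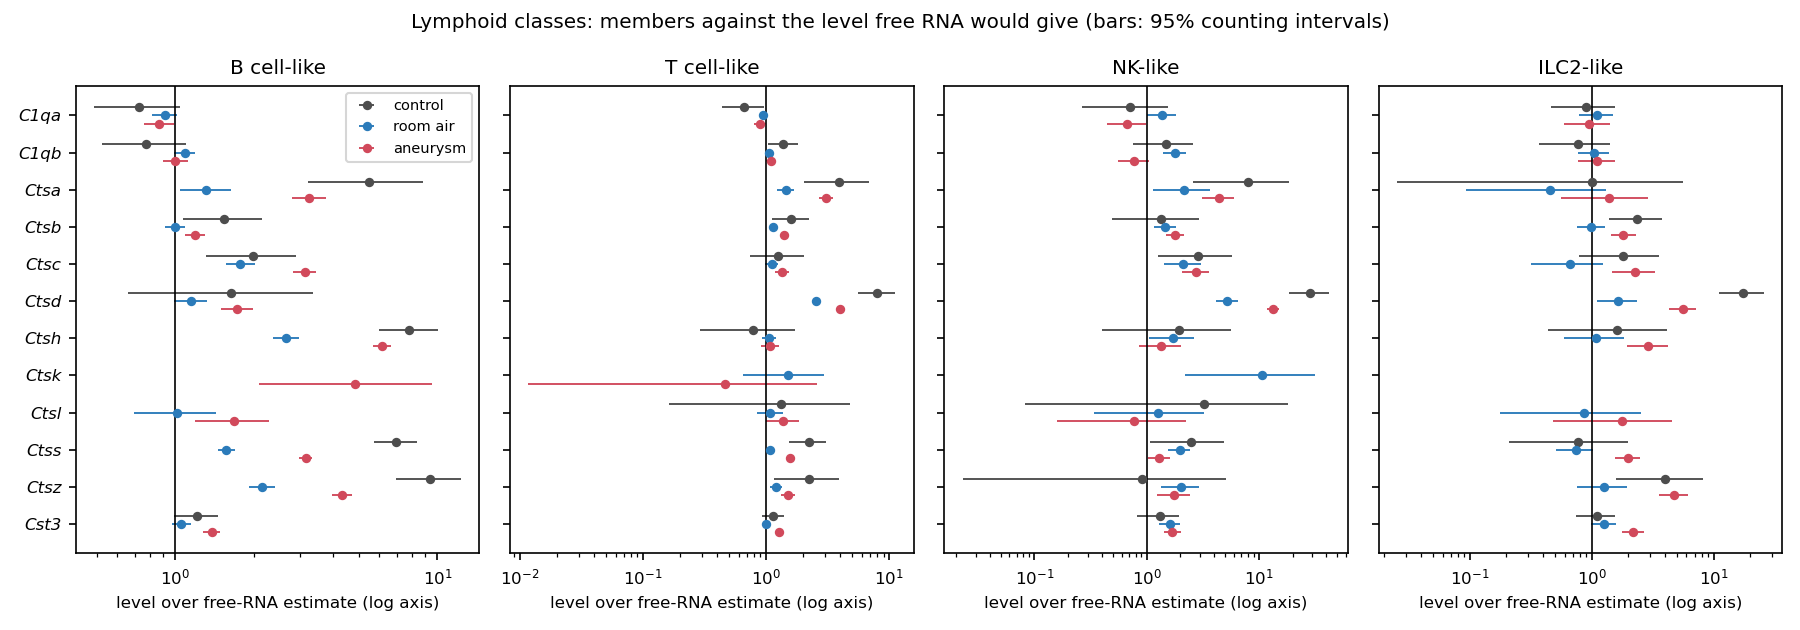
Level of each member in 4 lymphoid classes divided by the level that free RNA would give (horizontal log axis, line at 1), with C1qa and C1qb at the top as the gauge; points are libraries and bars 95% counting intervals that leave out the error of the gauge, and members with 0 UMIs have no point. Ctsd in NK-like cells (13.4 in aneurysm) and Ctsh, Ctss and Ctsz in B-cell-like cells lie to the right of the line.

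Neutrophil-like cells were compared between room air and aneurysm, where they numbered 92 and 95. Their Ctsb was 3932 CPM in room air and 4225 in aneurysm, Ctss 3734 CPM in room air and 3592 in aneurysm and Ctsc 1705 CPM in room air and 1329 in aneurysm, the last a ratio of 0.779 (0.717 to 0.847). The share of its cathepsin RNA that comes from macrophages was not tested. Endothelial-like cells, led by Tm4sf1, Cytl1, Clu and Cldn5, had Ctsh at 1370.2 CPM (control), 1126 CPM (room air) and 914 CPM (aneurysm) and Ctsl at 371 CPM (control), 350.3 CPM (room air) and 271 CPM (aneurysm). In control these were the highest of any class with enough cells, above the 837 and 228 CPM of macrophage-like cells. Their Cst3 was 2.50-fold (2.22 to 2.82) lower in room air, from 47 and 35 cells. Their Ctss stood at 60.6 CPM (control), 569 CPM (room air) and 785 CPM (aneurysm), of which free RNA would give 94.8%, 73.8% and 20.4%.

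Related genes were read from lists, and their counts in macrophage-like cells stand beside the shares over all genes. These were 26.0% higher and 14.1% lower in room air against control, and 3.73% higher and 6.48% lower in aneurysm against room air. Of 8 other cathepsins and lysosomal peptidases, 6 had enough UMIs in macrophage-like cells, and in room air against control 3 were higher and 1 lower: Ctsw (4.09 to 20.8 CPM, 5.08-fold, 1.91 to 19.1), Napsa, an aspartic protease (32.7 to 152 CPM, 4.64-fold, 3.26 to 6.85), legumain, Lgmn, which processes several cathepsins (1362 to 2100.3 CPM, 1.54-fold, 1.46 to 1.63), and Ctsf (59.4 to 21.3 CPM, 2.79-fold, 1.97 to 3.93, lower). Ctsw was highest in NK-like cells where they were compared (731 CPM in aneurysm) and among T-cell-like cells otherwise (328 in room air), and its part in macrophage-like cells that comes from such cells was not tested. Napsa was highest in cDC2-like cells, with 1033 CPM in room air and 1027 in aneurysm. In aneurysm against room air Ctsf and Ctsw were lower (1.53- and 1.86-fold) and 0 were higher. The median log2 ratio of the list was 0.07 in room air against control, beside 0.13 over all genes, and -0.03 in aneurysm against room air, beside -0.02.

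Of 17 other cystatins and inhibitors, 5 had enough UMIs, with 3 higher and 1 lower in room air. Cstb, the cystatin of the cytosol, was higher (496 to 962 CPM, 1.94-fold, 1.76 to 2.13), in contrast to the secreted Cst3, and reached 1133 CPM in aneurysm. Cst7, which acts on cathepsin C, was higher from 1 UMI in control (1.02 to 22.7 CPM, 22.2-fold, 3.89 to 887), and was highest in NK- or T-cell-like cells. Serpinb6b was higher with an interval that includes 1 (4.09 to 7.82 CPM, 1.91-fold, 0.678 to 7.44), and Serpinb6a was lower (329.5 to 137 CPM, 2.40-fold, 2.08 to 2.75). Stefin A genes were seen in neutrophil-like cells, where Gm5483 had 196 CPM and Stfa2l1 94.3 CPM in aneurysm. In aneurysm against room air 0 of 6 passed in either direction. The median log2 ratios of the list were 0.93 and -0.17.

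Of 19 partners and sorting genes, 18 were compared, with 9 higher and 0 lower in room air. They included Psap, the precursor of the saposins (1623 to 4885 CPM, 3.01-fold, 2.86 to 3.17), Ifi30, the lysosomal thiol reductase (174 to 494 CPM, 2.84-fold, 2.43 to 3.34), Gm2a (145 to 387 CPM, 2.67-fold, 2.24 to 3.19), and, from 1 UMI in control, the mannose-6-phosphate receptor Igf2r (1.02 to 14.9 CPM, 14.6-fold, 2.52 to 585). Gnptab, which makes the mannose-6-phosphate tag, had an interval that includes 1 (8.19 to 16.6 CPM, 2.03-fold, 0.974 to 4.89). Among the TFEB family, Mitf was higher (16.4 to 29.3 CPM, 1.79-fold, 1.06 to 3.24), Tfeb had a ratio of 1.42 (0.869 to 2.45) and Tfe3 of 0.766 (0.531 to 1.13). In aneurysm against room air 0 of 19 passed in either direction. The median log2 ratios of the list were 0.58 and -0.06.

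Of 12 genes that accompany Ctsk in osteoclasts, 10 were compared, with 6 higher and 1 lower in room air. Higher were the membrane protease Mmp14 (4.09 to 77.0 CPM, 18.8-fold, 7.28 to 69.5), the acid phosphatase Acp5 (21.5 to 199 CPM, 9.27-fold, 6.03 to 15.1), the proton pump subunit Atp6v0d2 (5.12 to 31.1 CPM, 6.07-fold, 2.53 to 19), Ostm1 (18.4 to 36.9 CPM, 2.00-fold, 1.23 to 3.47) and the fusion receptor Dcstamp, at 0 in control and at least 4.78-fold higher against 3 counts, with an exact interval that began at 3.77. Mmp9 was lower (165 to 26.4 CPM, 6.24-fold, 4.86 to 8.04). In aneurysm Ocstamp was 1.5-fold higher than in room air, with an interval that includes 1 (0.956 to 2.41), and 0 were lower. The median log2 ratios of the list were 0.95 and 0.21.

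Of 12 genes of wall proteins and class II processing, 10 were compared and 8 were higher in room air, with 0 lower. The class II genes H2-Ab1 (4856 to 9974 CPM, 2.05-fold, 1.99 to 2.12) and their regulator Ciita (12.3 to 26.7 CPM, 2.17-fold, 1.19 to 4.33) were among the larger differences. Among the wall genes Fn1 was higher (95.2 to 179 CPM, 1.88-fold, 1.51 to 2.36). Also higher were Col3a1 (3.07 to 21 CPM, 6.85-fold, 2.27 to 33.9), Eln (4.09 to 10.3 CPM, 2.51-fold, 0.91 to 9.63), Dcn (13.3 to 31.5 CPM, 2.37-fold, 1.34 to 4.57) and Bgn (9.21 to 18.8 CPM, 2.04-fold, 1.02 to 4.64). These 4 were all low and are all made mainly by cells other than macrophages. In aneurysm against room air those same 4 wall genes were lower, Col3a1 by 9.70-fold and Eln by 8.12-fold, and 0 were higher. Room air was also the library with most free RNA by the C1q gauge, and the part of it in the wall genes was not tested. The median log2 ratios of the list were 1.03 and -0.29.

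Patterns across classes were compared over 29 sums of a class in a library, among 10152 genes, as Pearson correlations of log2(CPM + 1). The sums share libraries, clusters and depth, so the values are descriptive. The genes nearest Ctsb were Ms4a7 (0.95), C1qb (0.92) and Pla2g7 (0.92). Nearest Ctss were Pirb (0.96), Fcgr4 (0.92) and Wfdc17 (0.92). Ctsa was nearest Ms4a6d (0.94), Lair1 (0.90) and Csf1r (0.90), and Ctsc Fcgr2b (0.92), Cd68 (0.91) and C5ar1 (0.90). Csf1r and Cd68 are textbook genes of macrophages. Ctsl was nearest Camk1 (0.93), Tnfsf12 (0.90) and Daglb (0.90). Ctsh was nearest Sh3glb1 (0.95), Gabarap (0.90) and Bri3 (0.89), and Ctsz Ftl1 (0.89), Atp6v0b (0.89) and Slc7a7 (0.88). Ctsd and Ctsk had no gene as close: the nearest were Ccrl2 (0.82), Spns1 (0.81) and Ggh (0.78) for Ctsd, and Cd5l (0.83), Gpnmb (0.76) and Tuba1c (0.76) for Ctsk. Cst3 was nearest Atpif1 (0.94), Atox1 (0.88) and Shtn1 (0.88). Among the members, Ctsh and Ctsz were the closest pair (0.89), and Cst3 went furthest apart from Ctsd (-0.11) and nearest to Ctsz (0.64).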

How the data were processed

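Cells of 3 mouse aorta libraries, 1 for each group, were analysed. The authors deposited raw UMI counts for every gene and called barcode, with no normalization. The submitters' processing notes name Cell Ranger, STAR and mm10, with versions not given in the sources used here. There were 782 control, 1851 room air and 2842 aneurysm barcodes, where the labels speak of 738, 1736 and 2685 cells.

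Barcodes with at least 200 genes and at most 10% mitochondrial UMIs were kept (778, 1848 and 2839). Scrublet's own threshold marked 4, 2 and 1 cells and was not used. The highest scores up to 0.8% per 1000 barcodes were removed (5, 27 and 64 cells). In scanpy 1.11.5 the libraries were clustered together, without integration and without the 10 members, from 2000 variable genes, 30 components, 15 neighbours and Leiden resolution 1. A cluster was called X-like from markers of 17 classes if at least 3 markers were each found in 10% of its cells, the mean score was at least 0.6 and its 10 leading genes held no more markers of another class than of its own. The names were rebuilt here and may differ from the study's. Clusters 1 and 8 stayed unnamed (83, 53 and 91 cells).

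UMIs were summed per class and library. Levels have exact Poisson intervals and ratios exact conditional binomial intervals at 95%. A gene was compared with at least 20 UMIs over both libraries and classes with at least 25 cells. A count of 0 was compared at 3 counts. Free RNA was estimated from C1qa, C1qb and C1qc UMIs per T-cell-like cell (1.17, 4.68 and 1.69 for control, room air and aneurysm) and the library's mean profile. The scripts were tested on simulated data.

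The members, lists and markers were chosen with earlier results of these data known. Named are all members, up to 5 genes of each related list with the largest folds in each direction, the class with the highest level for other cathepsins and cystatins, and the 3 genes most like each member among genes reaching 20 CPM. Mitf, Tfeb, Tfe3 and, among the wall genes, Fn1 lie outside this rule and were named after their values were seen. Alternatives were the clustering genes, cells classed by their own markers, other joins of clusters, scaling, doublets, free RNA, thinning to 1000 UMIs, the fold, the UMI minimum and the cell minimum.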

Additional observations from a re-analysis of the deposited data

Results flagged for a closer look

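For some members the ratio between libraries lay on opposite sides of 1 in different classes, with counting intervals that exclude 1 on both. Each value is 1 library against 1 library, and the difference between classes was not tested. Ctsc in room air over control was 0.742 (0.707 to 0.779) in macrophage-like cells, where control and room air lie in different clusters, and 1.83 (1.17 to 2.98) in cDC1-like cells. Ctsc in aneurysm over room air was 0.779 (0.717 to 0.847) in neutrophil-like cells and 1.18 (1.08 to 1.29) in monocyte-like cells. Ctsb in aneurysm over room air was 0.586 (0.509 to 0.674) in cDC1-like cells and 1.09 (1.03 to 1.15) in monocyte-like cells. Ctsd in aneurysm over room air was 0.417 (0.302 to 0.576) in mature-dendritic-cell-like cells and 1.14 (1.03 to 1.26) in monocyte-like cells. With an estimate of free RNA subtracted, the dendritic cell values were 1.77 for Ctsc and 0.632 for Ctsb in cDC1-like cells and 0.433 for Ctsd in mature-dendritic-cell-like cells.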

How the results depend on the processing

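No paired analysis was possible because each group has 1 library. The count of members higher in macrophage-like cells in room air, 7, was between 5 (at 2-fold) and 8 under the settings tried. The shares over all genes under those settings are not given here. The counts of 0 in aneurysm against room air, and those of members highest in a myeloid class, stayed within 1.5 times of their value. The ratio of aneurysm to room air for Ctsk in macrophage-like cells ran from 0.383 to 1.04 over the settings. Its low end is past 1.5-fold, and whether it had enough UMIs for a call is not given here. The count of 1 lower member, Cst3, was 0 without the joined clusters that lack a class marker among their leading genes, where 13 control cells were left, and 0 at 2-fold. Cysteine cathepsin UMIs per Cst3 UMI in macrophage-like cells depended most on the cells joined. In room air they were 2.62 without those clusters, 3.46 with cells thinned to 1000 UMIs, 4.19 with free RNA subtracted, 4.26 without the cluster carrying T cell genes and 4.47 with the members kept in clustering. In aneurysm they were 2.76, 3.86, 4.47 and 4.85 without those clusters, thinned, without the cluster carrying T cell genes and with the members kept, and 4.58 when each cell was classed by its own markers. In control they were 1.29 with own markers and 1.15 with thinning. Room air stayed above control in each. For this ratio, all settings but the clustering genes and own markers were chosen after seeing the data, as was leaving out the cluster carrying T cell genes throughout. Thinning weights all cells alike. Leaving out the clusters without markers removes clusters 2, 12 and 19, and with cluster 2 alone 253 of the 275 control cells. Why the ratio of cysteine cathepsins to Cst3 moved with the settings was not tested. Over the settings, the ratio of room air to control in macrophage-like cells ran from 3.22 to 4.55 for Ctsd, 1.75 to 2.45 for Ctsb, 1.64 to 3.22 for Ctss, 0.736 to 1.65 for Ctsc and 0.556 to 0.882 for Cst3. Depth limits Ctsk and the classes under about 25 cells.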

Other observations

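Mature-dendritic-cell-like cells, the Ccr7- and Fscn1-positive cells, numbered 38 in room air and 85 in aneurysm and had none in control. They kept Cst3 at 12277 CPM in room air and 12109 in aneurysm, a ratio of 0.986 (0.942 to 1.03), and Ctsh at 1632 CPM in room air and 1809 in aneurysm, a ratio of 1.11 (0.979 to 1.26). Ctsd there was 2.40-fold (1.74 to 3.31) lower in aneurysm.

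The 21 pDC-like cells of aneurysm had 4.43 (3.89 to 5.06) cysteine cathepsin UMIs for each Cst3 UMI, with cathepsins at 1.01% of their UMIs. The 20 plasma-cell-like cells of room air had cathepsins at 0.861%. Both classes are too small to compare between libraries.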
